A study of Mus musculus with 12 samples.

Results

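The proteasome is the barrel-shaped protease that degrades ubiquitin-tagged proteins. Its core particle stacks rings of alpha subunits (Psma genes) around rings of beta subunits (Psmb genes), some of which carry the cutting sites. The regulatory particle caps the core: its base holds the ring of ATPases (Psmc genes) that unfold substrates, and its lid removes the ubiquitin chains (most Psmd genes). In neurons, proteasome activity is known to be needed for lasting synaptic change and for memory after fear conditioning. Members were the gene symbols that start with Psm, one letter from a to g and a number, which gave 48 of the 24421 genes in the count tables: 19 of the core, 20 of the base and lid, 4 activators (Psme) and 5 assembly factors or inhibitors (Psmf and Psmg).

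RNA of hippocampal tissue was taken from C57/Bl6 mice aged 6 weeks and pelleted for 4 h through a 1 M sucrose cushion, so it holds transcripts that sediment with ribosomes. Of the 12 libraries, 6 are labelled control and 6 fear case. One protocol text stands for all of them: single housing, 8 min in an unfamiliar context, then 7 min back in their own cage, with tissue taken at 15 min. It does not give what set the control mice apart, nor whether a shock was used. No library is stated to be a separate mouse, so the p-values speak of spread among these samples only, which may be technical, and no total RNA was analysed here. The labels name no genetic change or drug.

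Libraries held 18.6 M to 44.2 M counts on genes (median 21.6 M), of which 67501 to 134088, or 0.303% to 0.417%, fell on the 48 proteasome genes. Defining genes of hippocampal neurons were present: the CaMKII alpha subunit gene Camk2a stood at 2503 ± 169.6 CPM (counts per 1 M gene counts after scaling between libraries; mean ± SD, n = 6) in controls and 2480 ± 73.0 CPM in fear case, and 0 of 10 such markers were called. Fear case 6 stood apart. It was the deepest library, had the largest share of the ribosomal RNA precursor Rn45s (12.5% of gene counts, against 4.55% to 7.98% elsewhere), and was the fear case library with the highest choroid plexus markers. Their summed level was 799 to 2276 CPM in controls, 30.3 to 428 CPM in fear case 1 to 5 and 1578 CPM in fear case 6, and 0 of 16 tested were called while 14 had an unadjusted p under 0.05. Values that moved by over 1.5 times when fear case 6 was left out are therefore given both ways for the genes described by library. The immediate early genes Fos, Arc and Npas4 all passed the test as higher in fear case, so activity genes separated the groups.

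The sequence around the start sites was searched for known letters. Proteasome genes are known to be induced together through the antioxidant response element by the factor Nfe2l1. RefSeq windows (GRCm38.p6) of 300 bases, 250 before and 50 after the start, were found for 40 of the 48 genes. The element, written TGACNNNGC and searched on both strands, was in 6 of these 40 windows (15.0%), against 14.5% of 10963 windows of genes tested here and 12.5% of all 27025. Its share among proteasome genes was thus near that of other genes. These are 2 of the 6, in the genes of the subunits with the chymotrypsin-like (Psmb5) and the caspase-like (Psmb6) cutting sites, with the match in capitals:
Psmb5, chr14:54618023-54618072, minus strand: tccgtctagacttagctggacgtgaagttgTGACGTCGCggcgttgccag
Psmb6, chr11:70525318-70525356, plus strand: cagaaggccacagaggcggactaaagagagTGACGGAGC

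The letters CCGGAAG, a core that ETS factors such as GABPA bind, were more frequent. They were in 13 of the 40 windows (32.5%), against 16.5% of windows of tested genes and 9.12% of all windows. Of the 13, 9 were among the 17 windows of base and lid genes, 2 among the 4 of activators and 2 among the 4 of assembly genes, and 0 were among the 15 of core genes. No test was made of these shares, and a match is not a bound site. The 4 stretches shown are of base and lid genes, which held 9 of the 13 matches, with CCGGAAG or its reverse complement CTTCCGG in capitals:
Psmc6, chr14:45329694-45329760, plus strand: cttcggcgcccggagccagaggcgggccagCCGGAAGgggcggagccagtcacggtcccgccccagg
Psmd2, chr16:20651596-20651651, plus strand: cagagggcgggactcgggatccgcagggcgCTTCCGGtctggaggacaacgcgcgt
Psmd4, chr3:95042703-95042769, minus strand: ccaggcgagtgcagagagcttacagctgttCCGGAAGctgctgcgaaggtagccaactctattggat
Psmd11, chr11:80428574-80428614, plus strand: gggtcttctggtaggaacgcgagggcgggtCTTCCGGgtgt

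Other searched letters were the CCAAT box (35.0% of member windows, 38.5% of windows of tested genes), TATAAA (10.0% and 7.03%), the interferon-stimulated response element (12.5% and 2.86%) and the gamma-activated site TTCNNNGAA (7.50% and 6.80%). The interferon-stimulated response element was in 5 windows, those of Psmd4, Psmd9, Psmb3, Psmg4 and Psme1. The letters TTCNNNGAA were in 3 windows, those of Psmd2, Psmg1 and Psmb8, the last being an immunoproteasome gene described below.

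The constitutive particle was expressed throughout. Levels between genes were compared as CPM per kilobase of exon, the scaled count divided by the length of all annotated exons. Over the 31 constitutive subunits of the rings, base and lid, this level ran from 10.9 (Psmd11, a lid subunit) to 92.1 (Psmc5, an ATPase of the base), with a median of 32.5, and 23 of the 31 lay within 2-fold of that median. Psmc5 stood at 92.1 ± 5.16 (SD over 12 libraries), the ATPase gene Psmc1 at 75.8 ± 6.45 and Psmd4, a ubiquitin receptor, at 72.2 ± 6.10. These last values lie within their spread of each other. Medians were 32.5 for the alpha ring, 30.9 for the beta ring, 55.0 for the ATPases, 57.0 for the other base subunits and 27.8 for the lid. Per kilobase of the longest coding sequence they were 120.0, 88.7, 97.3, 84.5 and 73.8, in the same order of parts. The ranking of parts thus depended on the length used.

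The 8.43-fold span over these subunits depended on the length used. It was 4.60-fold with the longest transcript and 3.78-fold with the longest coding sequence, by which Psmb1 was highest and Psmb2 lowest. Near-identical copies also bear on the order, because reads that map to several places were set aside. Over 20% of the 40-base stretches of the longest transcript occurred in a transcript of another annotated gene for 7 members: 67.0% for Psmb5, 62.9% for Psme2, 61.0% for Psma5, 38.5% for Psma4, 34.5% for Psmd2, 27.9% for Psmc1 and 23.8% for Psma3. The levels of these 7 are uncertain. Part of the sharing is with genes whose exons overlap the member, AY074887 for Psma4 and Mir686 for Psmb5, and need not be a copy elsewhere. Exons of 8 members overlap those of another counted gene, as with Psmb9 and Tap1, and it is not known here whether the counter took strand into account.

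Most accessory genes lay toward the lower end, with exceptions among the activators and in the assembly gene Psmg4. Psmd5, Psmd9 and Psmd10, chaperones of base assembly that carry Psmd names, stood at 7.81, 2.74 and 10.2 CPM per kilobase. The assembly genes ran from 3.35 (Psmg3) to 21.1 (Psmg4). Among activators, which open the core without ATP, Psme3 (a nuclear activator) stood at 39.1 and Psme1 at 28.3, while Psme4 stood at 8.20 and Psme2, the partner of Psme1, at 4.16. In the count of stretches without a copy elsewhere, Psme2 stood at 21.5 and Psme1 at 33.5, so the gap between these partners depends on how copies are handled.

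**Figure D1:**
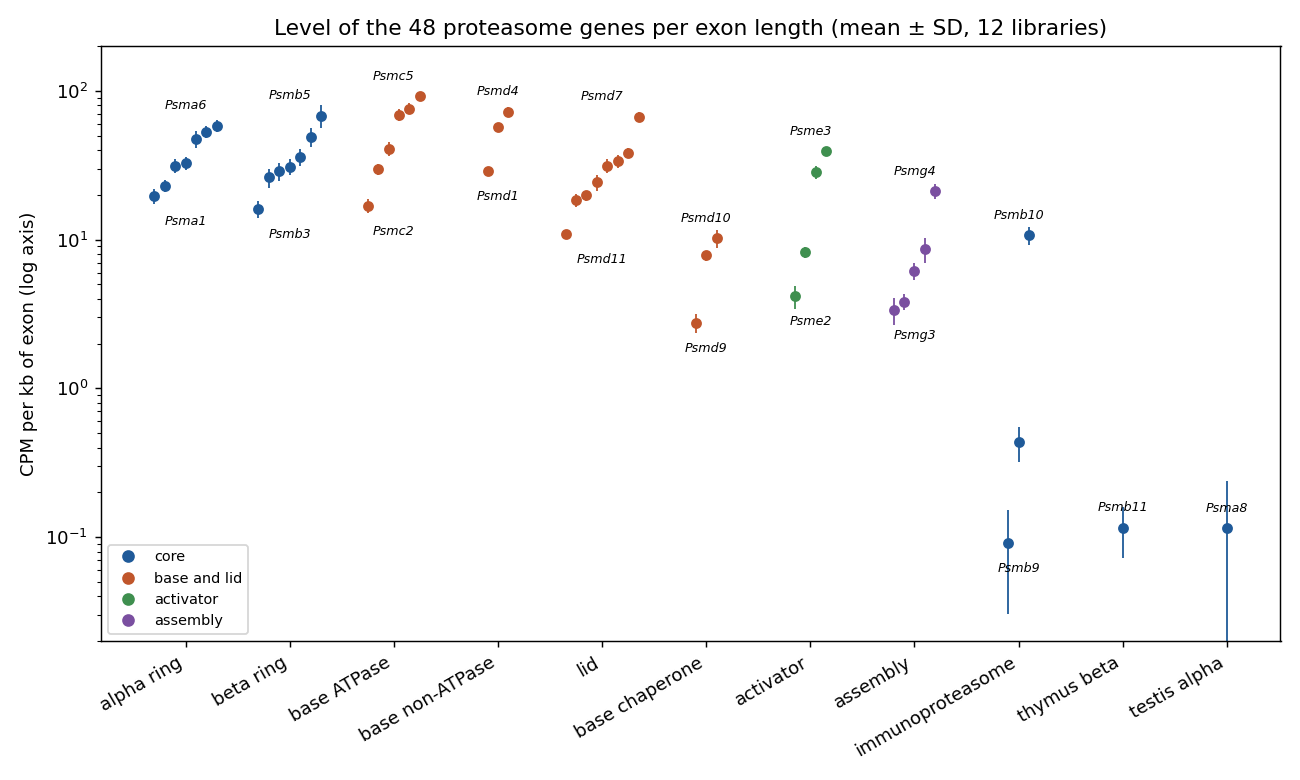
Level of each of the 48 proteasome genes, as CPM per kilobase of exon on a log axis, by part of the complex. Points are means over 12 libraries and bars the SD, cut off by the axis where it exceeds the mean (Psma8). The 31 constitutive subunits lie between 10.9 and 92.1, and Psmb8, Psmb9, Psmb11 and Psma8 lie below 0.5.

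The specialised core subunits were at the low end. Psmb11, the thymus beta subunit, had 4 to 26 counts per library, and Psma8, the testis alpha subunit, had 0 to 17. The immunoproteasome subunits Psmb8, Psmb9 and Psmb10 replace Psmb5, Psmb6 and Psmb7 in immune cells and after interferon. Psmb10 reached 38.4 ± 4.43% of the Psmb7 level per kilobase in the control group and 35.8 ± 3.58% in the fear case group (SD, 6 libraries each), while Psmb8 reached 0.608 ± 0.197% and 0.688 ± 0.171% of Psmb5. With coding lengths these control shares were 19.4% and 2.19%. So Psmb10 was well above Psmb8 and Psmb9 in every library.

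Setting fear case against control addresses whether relative levels of proteasome transcripts in the pelleted RNA differ between the groups at the stated collection time. No proteasome gene passed the test. Of the 48, 46 had enough counts to be tested and 0 were called by edgeR's quasi-likelihood test (adjusted p under 0.05), where 0.103% of all 14564 genes tested were called (15 genes); 0.0481% of all genes were called higher and 0.0549% lower. At an unadjusted p under 0.05 there were 2 members, or 4.35%, against 7.14% of all genes. Of these, 1 member was higher (2.62% of all genes were) and 1 lower (4.52% of all genes were). DESeq2 and limma-voom also called 0 members and gave the same 2 members, Psmd14 and Psme1. Log2 fold changes ran from -0.24 (Psme2) to 0.23 (Psmd14), 23 positive and 23 negative, with a median of -0.00042 beside -0.0046 for all genes. The split depended on scaling and on single libraries: 17 of 46 were positive with library totals only (38.3% of all genes were), 17 with the choroid plexus level in the model and 31 without fear case 6. In no tested or untested member did the 2 groups separate without overlap, while 0.597% of all tested genes did.

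The intervals show what size of difference the data allow. For 42 of the 46 tested members (91.3%) the 95% interval of the log2 fold change lay within 0.5 of 0, that is within 1.41-fold in either direction, against 69.8% of all genes. Over those 42 the interval bounds ran from -0.40 to 0.39. The exceptions were Psmb8, Psmb11, Psme2 and Psmg3, all among the least abundant members, and the widest interval was that of Psmb11, from -0.998 to 0.70. Without fear case 6 the median was 0.039 and again 0 members were called. In bulk tissue, fewer cells of a type and less RNA per cell cannot be told apart.

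**Figure D2:**
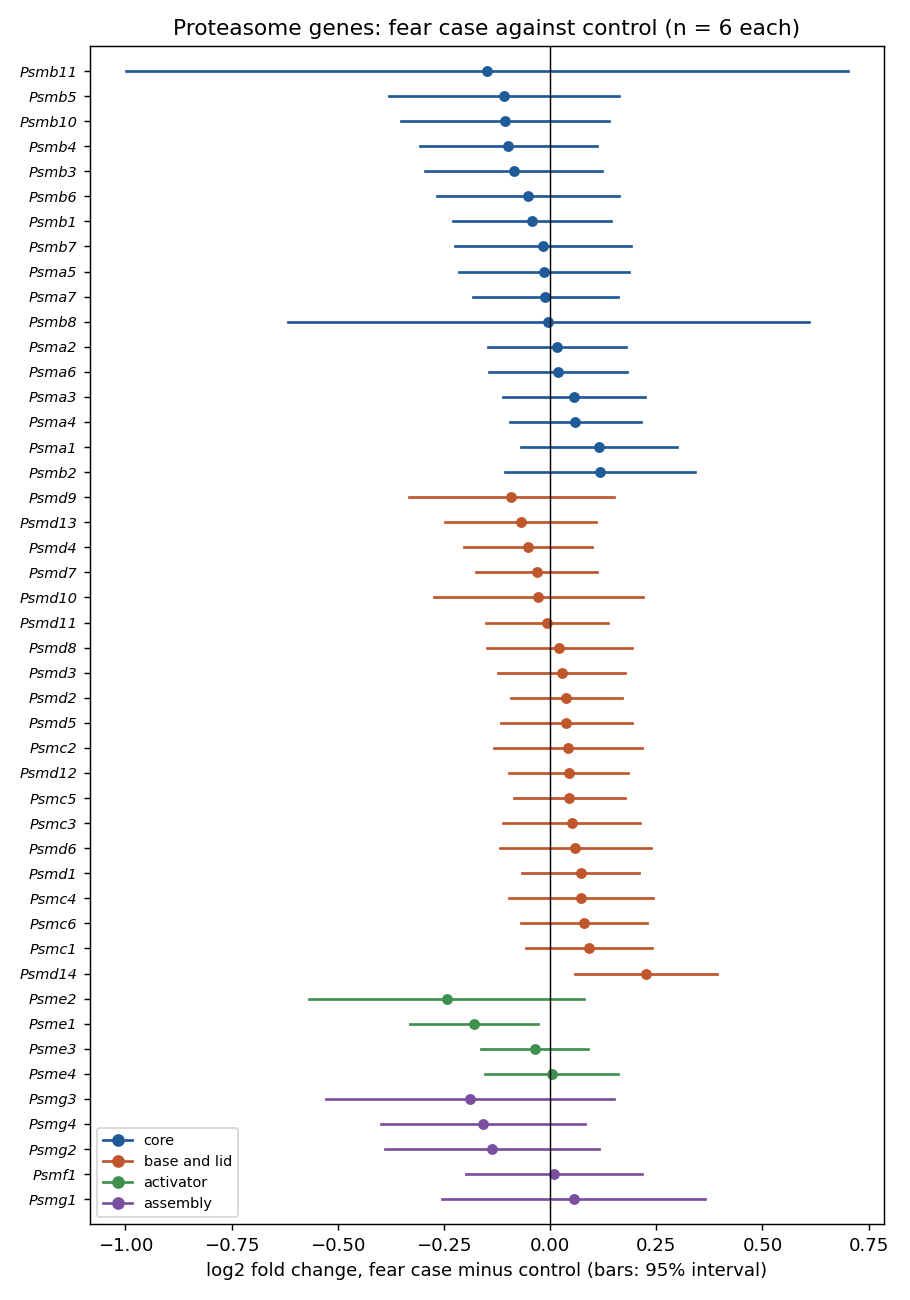
Log2 fold change of fear case against control for the 46 tested proteasome genes, with 95% intervals from the quasi-likelihood fit, coloured by group and sorted within it. Points lie between -0.24 and 0.23, and the intervals of Psmd14 and Psme1 alone leave out 0 before adjustment over all genes.

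Among core genes, 6 of 17 tested had a positive log2 fold change and 11 a negative one, with a median of -0.014 and 0 at an unadjusted p under 0.05. Without fear case 6, 13 of the 17 were positive. In the fit of all 12 libraries the alpha ring, which gates entry to the core, had 5 of 7 positive. In that fit the beta ring had 6 of 7 negative, and 48.6% of all genes were positive. Of the beta ring genes, Psmb5, Psmb6 and Psmb7 turned from negative to positive without fear case 6. Psma1, an alpha subunit, had 43.6, 54.3 and 64.2 CPM (lowest, median and highest) in controls and 51.9, 60.2 and 66.4 CPM in fear case. The ranges overlap over most of their length, and the estimate was 0.11 on the log2 scale (SE 0.088, adjusted p = 0.819). The largest positive value in the core was that of the beta subunit Psmb2, at 0.12 (adjusted p = 0.849), and the largest negative one that of Psmb11, at -0.15 (adjusted p = 0.967).

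The 3 cutting subunits of the constitutive core were close between groups except in one library. Psmb5 had 52.1, 62.5 and 74.3 CPM in controls and 32.6, 62.1 and 69.7 CPM in fear case. Psmb6 had 82.5, 89.8 and 112.5 CPM in controls and 61.4, 94.6 and 102.4 CPM in fear case. Psmb7, with the trypsin-like site, had 87.2, 94.3 and 120.3 CPM in controls and 69.8, 101.8 and 111.5 CPM in fear case. For each of the 3, the lowest fear case value was that of fear case 6, below every other library, and the other 5 lay inside the control range. Their log2 fold changes were -0.11 (SE 0.13), -0.05 (SE 0.10) and -0.02 (SE 0.10), with adjusted p of 0.898, 0.944 and 0.989. Without fear case 6 each was positive, at 0.017, 0.037 and 0.064, and none was called.

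The immunoproteasome genes did not separate the groups either. Psmb10 had 16.99, 19.1 and 20.9 CPM in controls and 11.9, 17.99 and 20.9 CPM in fear case. Fear case 2 and fear case 6 lay below every control, and the estimate was -0.11 on the log2 scale (SE 0.12, adjusted p = 0.884). Without fear case 6 it was -0.012, and with the choroid plexus level in the model -0.32 (adjusted p = 0.705). Psmb8 had 0.764, 1.55 and 2.09 CPM in controls and 1.15, 1.54 and 1.69 CPM in fear case, from 17 to 49 counts per library. Its log2 fold change was -0.0046 (0.044 without fear case 6) with an interval from -0.62 to 0.61, so differences up to about that size were not excluded. Psmb9 had 0 to 13 counts per control library and 1 to 12 per fear case library and was not tested. Of 9 interferon and antigen presentation genes known to share its regulation, 0 were called and 0 had an unadjusted p under 0.05. Microglia and macrophage markers, from cells that can express the immunoproteasome, had 0 of 15 called and a summed level of 76.5 to 155 CPM in controls and 68.5 to 114 CPM in fear case. Their part in these values was not tested.

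**Figure D3:**
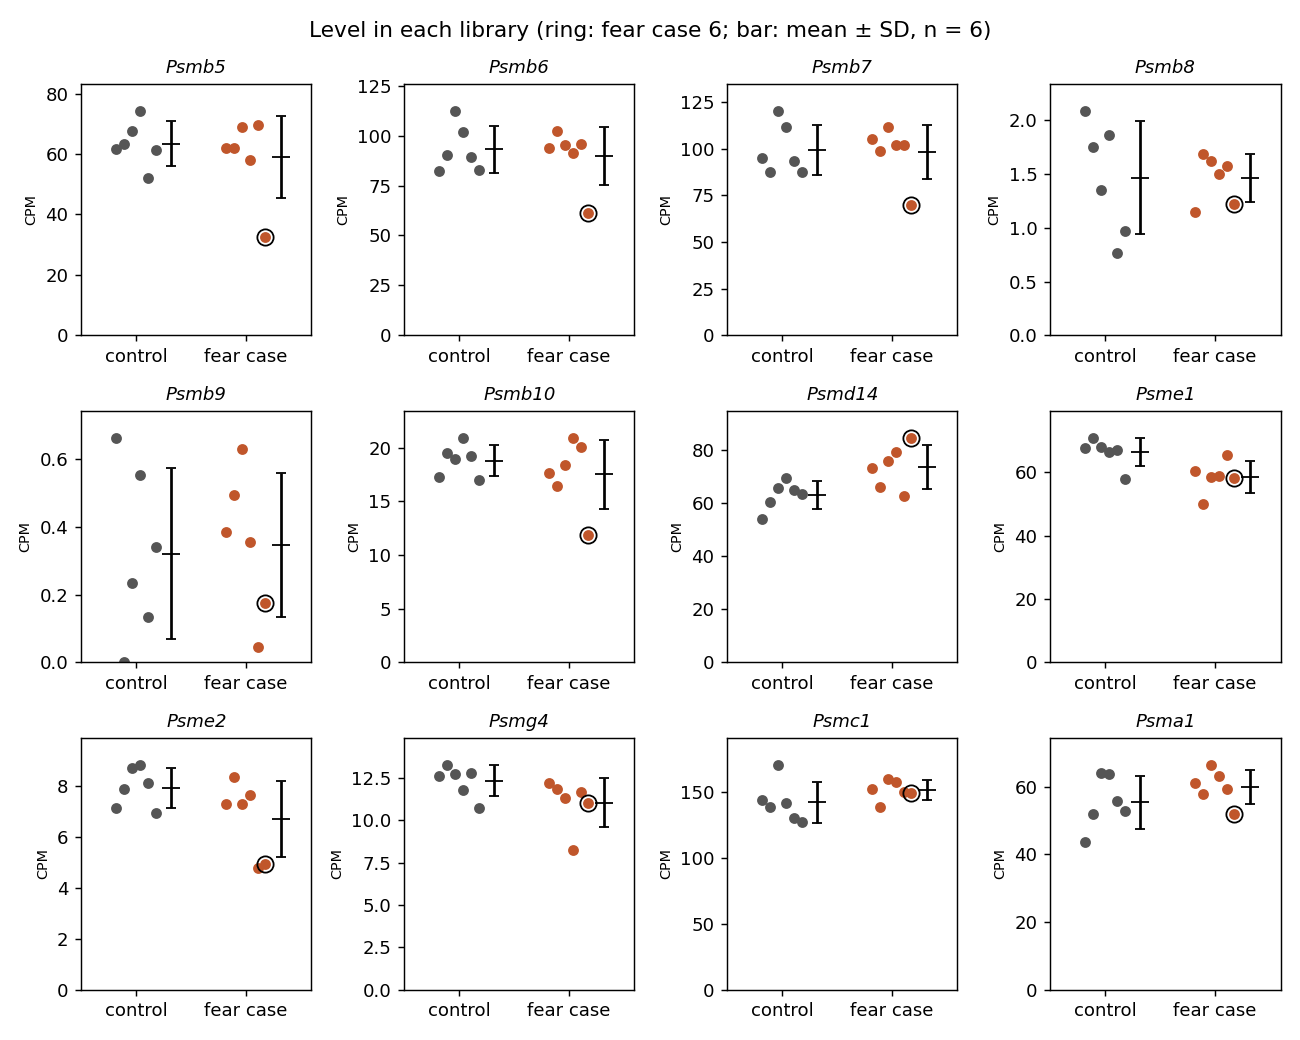
CPM in each library for the 12 genes described by library, control in grey and fear case in orange, with mean and SD (n = 6 each) beside the points; each axis starts at 0. The ringed point is fear case 6, lowest of all libraries for Psmb5, Psmb6, Psmb7 and Psmb10 and highest for Psmd14.

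Of the base and lid genes, 14 of 20 had a positive log2 fold change, beside 48.6% of all genes, and 10 to 16 did over the alternative fits. The median was 0.040 with 1 at an unadjusted p under 0.05. All 6 ATPase genes were positive, between 0.042 (Psmc2) and 0.092 (Psmc1), and each interval included 0. Psmc1 had 127.2, 140.0 and 170.4 CPM in controls and 138.5, 151.1 and 159.9 CPM in fear case. The fear case range lay inside that of controls, where control 3 was highest, with an estimate of 0.092 on the log2 scale (SE 0.071, adjusted p = 0.819). Psmc5, an ATPase that CaMKII is known to phosphorylate in neurons, was estimated at 0.045 on that scale (SE 0.063, adjusted p = 0.914). The ubiquitin receptor gene Psmd4 had -0.052 (SE 0.072, adjusted p = 0.915) and the base chaperone gene Psmd9 had -0.091 (adjusted p = 0.906), and -0.038 without fear case 6.

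The member with the lowest p was Psmd14, the lid enzyme that cuts ubiquitin chains off substrates. It had 53.8, 64.1 and 69.2 CPM in controls and 62.4, 74.4 and 84.4 CPM in fear case. Of the 6 fear case libraries, 4 lay above every control and 2 lay among them. The means were 62.8 ± 5.29 and 73.5 ± 8.21 CPM (SD, n = 6 each), a 1.17-fold difference (log2 fold change 0.23, SE 0.081, 95% interval 0.058 to 0.39). Its p was 0.0107 and its adjusted p 0.515, so it failed the correction. Over the 21 alternative fits its value stayed between 0.18 and 0.28, and its adjusted p ran from 0.372 to 0.816. Fear case 6 was its highest library, and without it the value was 0.18.

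The activators were 1 positive and 3 negative, with a median of -0.11. Psme1, whose product forms the interferon-inducible cap with Psme2, had 58.0, 67.4 and 70.8 CPM in controls. In fear case it had 49.9, 58.7 and 65.4 CPM. All 6 fear case libraries lay below the control median, 1 of them below every control, while control 6 lay among the fear case values. The log2 fold change was -0.18 (SE 0.073). By edgeR's quasi-likelihood test its adjusted p was 0.601, so it failed the correction too. It had an unadjusted p over 0.05 without control 2, without fear case 2 and when choroid plexus level was added to the model, where it was -0.076. Its partner Psme2 had 6.94, 8.03 and 8.85 CPM in controls and 4.78, 7.32 and 8.36 CPM in fear case. Fear case 5 and fear case 6 lay below every control and the other 4 did not, and the log2 fold change was -0.24 (SE 0.16, adjusted p = 0.770). It was -0.17 without fear case 6 and -0.59 with the choroid plexus level in the model (adjusted p = 0.631). Psme3 had -0.036 and Psme4 0.0037 (adjusted p = 0.934 and 0.996).

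Of the 5 assembly genes, 2 were positive and 3 negative, with a median of -0.14. Psmg4, a chaperone of alpha ring assembly, had 10.7, 12.7 and 13.3 CPM in controls and 8.23, 11.5 and 12.2 CPM in fear case. All 6 fear case libraries lay below the control median and 5 of them within the control range, and the log2 fold change was -0.16 (SE 0.12, adjusted p = 0.804). Its partner Psmg3 had -0.19 (adjusted p = 0.837), and -0.089 without fear case 6. Psmg1, another alpha ring chaperone, had 0.055 (adjusted p = 0.967).

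Libraries differed more than groups did. The mean deviation of log2 CPM from each gene's own mean, over the 31 constitutive subunits, ran from -0.12 (control 6) to 0.15 (control 3) in controls and from -0.21 (fear case 6) to 0.096 (fear case 5) in fear case. The group means were -0.010 ± 0.11 and 0.010 ± 0.12 (SD, n = 6), and leaving out fear case 6 gave 0.054 ± 0.062 for the other 5. Control 3 held the highest value of 14 of the 31 genes, and fear case 6 the lowest of 17. In control 3 all 14 ring genes and 14 of 17 base and lid genes stood above their mean. Most subunits thus stood high together in control 3. This did not hold in every library: in fear case 2, 8 of 14 ring genes but 3 of 17 base and lid genes stood above their mean. The spread within groups had a median coefficient of variation of 10.5% over the 31 genes, beside 9.44% for the 5120 tested genes in the same range of CPM.

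**Figure D4:**
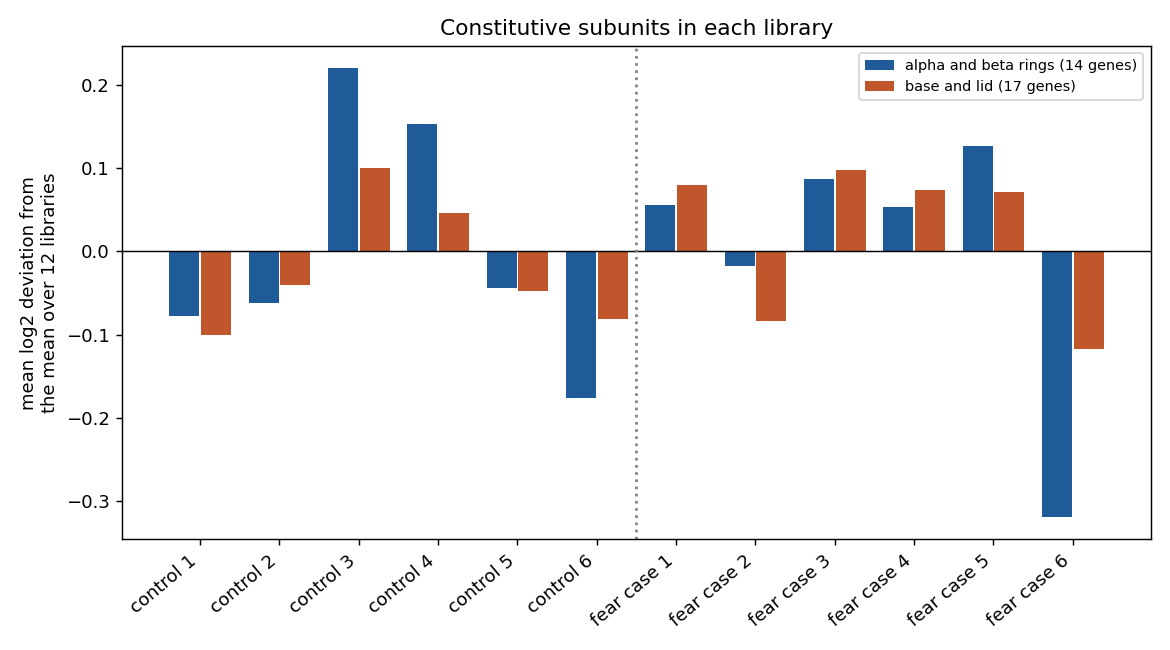
Mean log2 deviation of the 14 ring genes and the 17 base and lid genes in each library from their means over all 12 libraries. Bars start at 0; control 3 is highest (0.22 for the rings) and fear case 6 lowest (-0.32 for the rings and -0.12 for base and lid).

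In fear case 6 the parts of the particle did not shift alike. Against the other 5 fear case libraries, its log2 CPM of beta ring genes had a median difference of -0.57, with all 7 between -0.97 and -0.38. The alpha ring had a median of -0.24, from -0.42 to 0.14, and the lid of -0.26, from -0.42 to 0.25. The ATPases had a median of -0.16 and the other base subunits of -0.014. Psmb5 stood at 32.6 CPM, or 50.9% of the mean of the other 5, Psmb4 at 62.8%, Psmb6 at 64.1% and Psmb7 at 67.3%. Psmd14 stood at 118.5% and Psma3 at 109.7%. In fear case 6, 17 of the 31 genes lay below all other libraries, where 15.0% of all tested genes did so. Of the 17, 6 were in the beta ring, 5 in the lid and 3 in the alpha ring. This is 1 library, so the pattern has no replicate check. Alpha and beta ring genes have coding sequences of like length, 702 to 789 and 603 to 831 bases.

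Over 14030 genes the same difference in fear case 6 had a Spearman correlation of -0.28 with the GC content of the longest transcript and 0.31 with its length, and over the 31 subunits of -0.22 and 0.26. Other libraries, each against the rest of its group, had values of like size: over all genes 0.30 with length in control 6 and -0.22 with GC content in control 3, and over the subunits 0.42 with GC content and -0.52 with length in fear case 5. These are descriptions of single libraries, and genes are not independent. The median GC content was 51.0% for beta ring, 45.0% for alpha ring and 50.7% for ATPase transcripts. The part of GC content, length, Rn45s share and choroid plexus level in the low beta ring values was not tested.

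**Figure D5:**
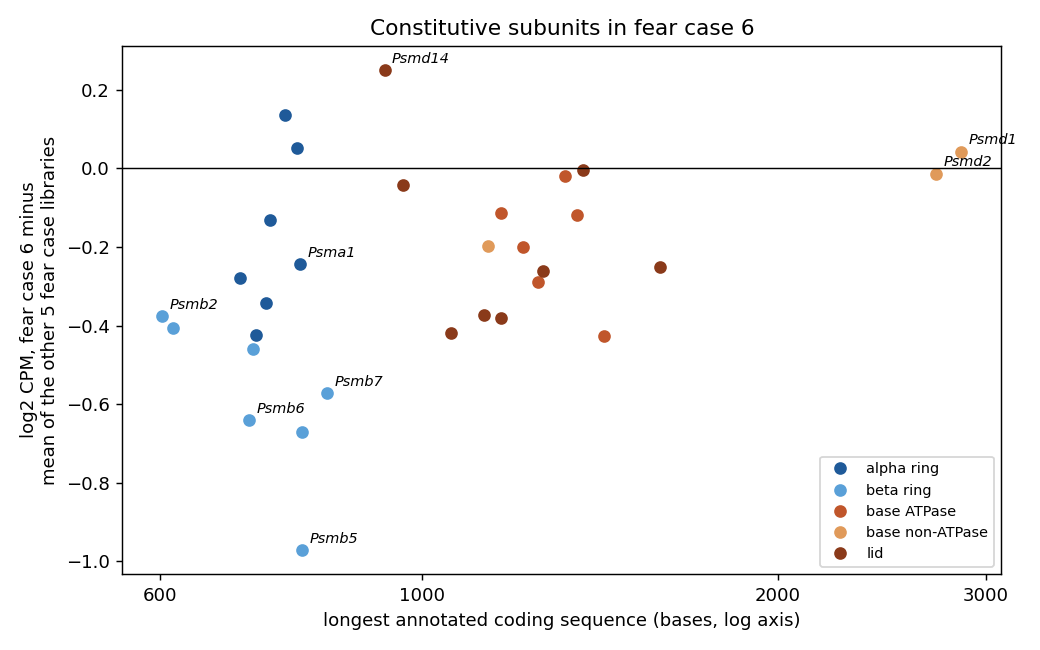
Difference in log2 CPM between fear case 6 and the mean of the other 5 fear case libraries for the 31 constitutive subunits, against the length of the longest coding sequence on a log axis. The 7 beta ring genes lie at -0.38 or lower and Psmd14 at 0.25.

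Genes that work beside the proteasome were described in the same way. Of 46 genes in 6 companion lists, 44 were tested, 0 were called and 3 had an unadjusted p under 0.05 (6.82%, against 7.14% of all genes), with a median log2 fold change of 0.0049. Among the sources and activating enzymes of ubiquitin, 0 of 6 had an unadjusted p under 0.05. The ubiquitin fusion gene Rps27a had -0.12 (adjusted p = 0.785). Of 9 tested factors bound to the particle, the ubiquitin-removing enzymes Uchl5 and Usp14 had 0.14 and 0.11 (adjusted p = 0.709 and 0.746). Among the shuttle factors, which carry tagged proteins to the particle, Rad23b had 0.047 (adjusted p = 0.909).

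Among the 7 regulators of proteasome genes, Nfe2l2, a factor of the antioxidant response, had -0.24 (adjusted p = 0.820) and Akirin2, an importer of proteasomes into the nucleus, -0.089 (adjusted p = 0.835). Of the 5 genes of the p97 segregase, which extracts tagged proteins, Nsfl1c had -0.081 and Vcp -0.038 (adjusted p = 0.850 and 0.939). The list of neuronal ligases and deubiquitinases, whose 11 tested genes include the membrane glycoprotein genes Gpm6a and Gpm6b, which are neither, held all 3 of the low unadjusted p values. The ligase subunit gene Fbxo2 had -0.22 (adjusted p = 0.524), and the deubiquitinase genes Usp9x and Usp46 had 0.22 and 0.15 (adjusted p = 0.597 and 0.598).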

How the data were processed

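The authors deposited raw whole-number counts per gene symbol for each library. Cutadapt, TopHat, Bowtie, HTSeq and the build mm10 appear in the submitters' processing notes; versions, annotation and strand setting were not given in the sources available for this text. The 5 summary lines of the counter were left out. Of the sum of gene, no-gene and ambiguous counts, no gene made up 25.5% to 33.3% and ambiguous 0.453% to 0.550%. Alignments that were not unique lie outside these shares, at 67.8 M to 115.4 M per library. The test was that of edgeR 4.0.16 under R 4.3.3: filterByExpr by group (minimum count 10, minimum total 15), TMM scaling, the quasi-likelihood test without covariates and Benjamini-Hochberg adjustment over 14564 genes. The SE is the log2 fold change over the square root of F. Alternatives used DESeq2 1.42.0, limma 3.58.1, other filters, scalings and covariates, and each library left out. The scripts were tested on simulated data.

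Lengths, coordinates and transcripts came from GENCODE vM21 (GRCm38, the assembly of mm10). All 48 members matched. Members and lists were chosen with earlier results of these data known. Shown by library are the catalytic beta subunits and the 6 members with the lowest p. By value, the 3 highest and 3 lowest tested levels, the extreme fold changes of each group and 2 members per companion list are given, except that some members of these lists are not reported here. The parts of the complex, the promoter letters and the look at fear case 6 were chosen after the values were seen. No 2 libraries of a group agreed within sampling noise (lowest chi-square per gene 8.18).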

Additional observations from a re-analysis of the deposited data

Results flagged for a closer look

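Single libraries lay far from the other 5 of their group in 7 of 30 groups of values examined. The rule flags about 1 in 20 groups of independent, normally distributed values. These 30 groups share libraries and genes, and 6 genes were picked for a low p, so the count cannot be held against that rate. Fear case 6 was low for Psmb5 (32.6 CPM, the others 57.9 to 69.7), Psmb6 (61.4 CPM, the others 91.1 to 102.4), Psmb7 (69.8 CPM, the others 98.9 to 111.5) and the mean log2 deviation of the alpha and beta rings (-0.32, the others -0.018 to 0.13). These share 1 library. Control 6 was low for Psme1 (58.0 CPM, the others 66.4 to 70.8). Fear case 4 was low for Psmg4 (8.23 CPM, the others 11.02 to 12.2). Control 3 was high for Psmc1 (170.4 CPM, the others 127.2 to 143.4).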

How the results depend on the processing

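Over 21 alternative fits, 0 proteasome genes were called in each, and their median log2 fold change stayed between -0.074 (choroid plexus score as covariate) and 0.039 (without fear case 6). Each median lay within 0.115 of the main value. That is the SD within groups of the mean deviation per library, and not the error of a difference between groups. The count of all genes called moved from 15 to 59 with DESeq2, 33 with library totals only, 37 without a low-count filter and 5 with the covariate, and from 9 to 128 with 1 library left out (9 without control 3 or fear case 2, 128 without fear case 6). With the covariate, members with an unadjusted p under 0.05 went from 2 to 6 (Psmb4, Psmb5, Psmb6, Psmd14, Psme2 and Psmg3), or 13.04% of members against 6.98% of all genes, with Psmb5 at -0.40, Psmb6 at -0.30, Psme2 at -0.59 and Psmg3 at -0.50 (adjusted p 0.631 or above). The covariate score was 2.82 to 4.07 in controls, -1.39 to 2.00 in fear case 1 to 5 and 3.61 in fear case 6. Score and group thus overlap only through fear case 6, and the values fitted with the covariate lean on that library. Without it Psmb5 and Psmb6 were at 0.017 and 0.037. The span of levels over constitutive subunits moved from 8.43-fold to 4.60-fold with transcript length and 3.78-fold with coding length. It was 8.23-fold over stretches found in no transcript of another gene, a choice made after seeing the data.

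Signs turned for the following members, none of them called, and the cause was not tested. Psme4 had -0.031 with library totals, -0.0014 with a minimum count of 50 and -0.00081 with the replicate number as a block. Psmb8 had 0.055 with limma-voom and 0.054 with the block; with the covariate Psmc5 had -0.029 and Psmg1 -0.13. With 1 library left out, ranges that crossed 0 were -0.16 to 0.017 (Psmb5), -0.091 to 0.037 (Psmb6), -0.055 to 0.064 (Psmb7), -0.14 to 0.13 (Psmb8), -0.27 to 0.072 (Psmb11), -0.044 to 0.040 (Psme4) and -0.0031 to 0.14 (Psmg1). The libraries share only replicate numbers: deviations of same-numbered libraries correlated at -0.17 to 0.047, 2 of 12 libraries matched their own number best, and the block gave 18 calls over all genes and 0 among members. Psmb8 and Psmb11 could not be fitted with a minimum count of 50. Depth limits the members under about 1.5 CPM (Psmb8, Psmb9, Psmb11 and Psma8).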
